A study of Mus musculus with 24 samples.

Results

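Interferon-stimulated genes are the genes that cells switch on in response to interferons, and 40 of them were followed here in the frontal cortex of mice whose astrocytes make interleukin-6. They were chosen by symbol from the table of read counts, where 39 of the 40 have a row among 33000 genes, and Mx2 is not analysed here. All 39 had at least 1 count. The samples were 24 3'Pool-seq libraries, which count reads at the 3′ ends of polyadenylated transcripts, from 3 WT and 3 homozygous GFAP-IL6 mice of the C57BL/6 strain, all 3 months old. In the GFAP-IL6 line, Il6 is expressed from the GFAP promoter, which is active mainly in astrocytes. Each mouse gave 4 libraries from the same RNA, made with 2 ng or 1 ng of amplified cDNA in sets A and B, and what separates the sets is not given in the labels. The counts of these 4 libraries were summed, so that the mouse is the replicate (n = 3 per genotype).

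Type I interferons signal through the receptor chains Ifnar1 and Ifnar2, and interferon gamma through Ifngr1 and Ifngr2. Type I signalling brings Stat2 and Irf9 into a complex that binds the interferon-stimulated response element (ISRE), whereas interferon gamma and interleukin-6 act through dimers of STAT proteins that bind gamma-activated sites (GAS). The induced genes encode RNA and DNA sensors, proteins that block viral replication, ubiquitin-like modifiers and GTPases. In the brain some of them are also expressed by resting microglia, the resident macrophages, and Irf8 is a transcription factor that microglia need to develop.

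Il6 and Gfap were read first, as a check of the genotype labels. Il6 had 5, 3 and 0 counts in WT mice 1, 2 and 3, and 30, 33 and 163 counts in GFAP-IL6 mice 1, 2 and 3. Gfap, the astrocyte intermediate filament, rose from 20.0 ± 3.78 to 109.6 ± 33.4 CPM (SD, n = 3 mice each), with an edgeR adjusted p of 1.59e-06. CPM are counts scaled to a common library size, here to the mouse's total after TMM normalization. Totals ran from 7852743 counts in WT mouse 3 to 37582644 in GFAP-IL6 mouse 3. At these depths, 3 counts correspond to 0.382 CPM in the former and 0.0798 CPM in the latter. WT mouse 3 also stood apart in Ttr, a choroid plexus marker, with 4030 CPM against 74.5 to 742 CPM in the other mice. Neuronal markers defined the tissue, and the 4 of them (Snap25, Rbfox3, Syt1, Map2) summed to between 4964 and 6012 CPM in each mouse.

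The interferon-stimulated genes that passed the test were all higher in GFAP-IL6 cortex. Of 38 members tested, 9 (23.7%) were called higher in GFAP-IL6 mice at a Benjamini-Hochberg adjusted p under 0.05 in edgeR's quasi-likelihood test, against 1.74% of the 14621 genes tested. They were the transcription factors Irf8 and Irf9, the antiviral gene Oasl2, the guanylate-binding proteins Gbp2 and Gbp7, and Trim30a, Ifi27, Ifi35 and Lgals3bp. With a log2 fold change above 1 as a second condition, 5 members (13.2%) were called, against 1.20% of all genes. The list was chosen with earlier results of these data known. These shares and those below describe it and do not test it. Mx1 was the member that failed the filter on low counts, with 22 counts over all mice. C57BL/6 mice, the strain named for the WT mice, are known to carry a defective Mx1 gene.

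Most members had positive fold changes whether or not they were called. The log2 fold change was positive in 35 of the 38 members (92.1%) and in 48.1% of all genes tested. Its median was 0.65 over the members and -0.01 over all genes. In 20 members (52.6%) every GFAP-IL6 mouse lay above every WT mouse, which was so for 8.43% of all genes. An unadjusted p under 0.05 was found for 22 members, and for 8.75% of all genes. The exceptions with a negative fold change were Ifih1 at -0.15 ± 0.250, Cmpk2 at -0.13 ± 0.106 and Psmb10 at -0.08 ± 0.084 (log2, SE), none of which passed the test.

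**Figure D1:**
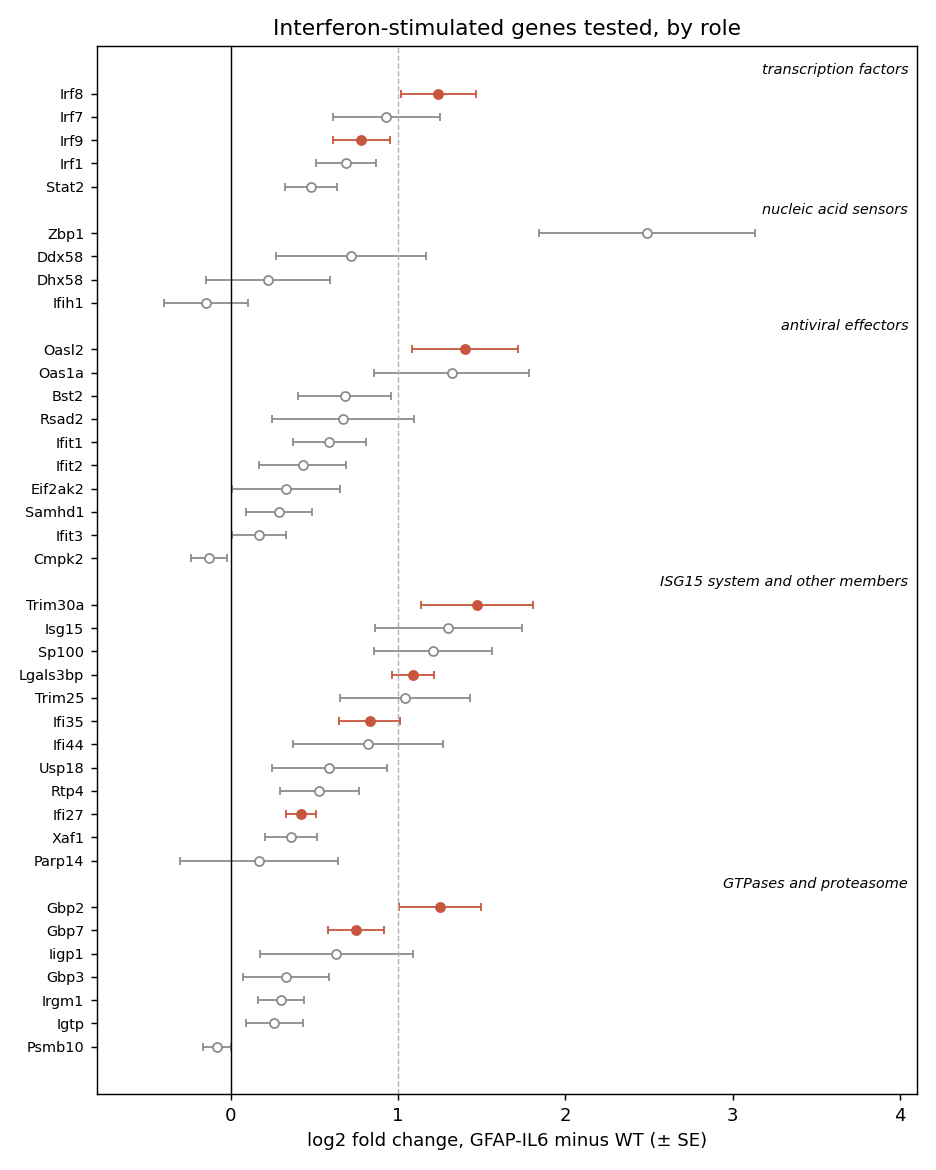
Log2 fold change between GFAP-IL6 and WT mice (horizontal axis, bars ± SE, n = 3 mice each) for the 38 interferon-stimulated genes tested, grouped by role. Filled red points mark the 9 genes with an adjusted p under 0.05, open grey points the other 29, and the dashed line a log2 fold change of 1. All but Ifih1, Cmpk2 and Psmb10 lie to the right of 0.

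The number of members called depended on which mice were in the fit. Without WT mouse 3 the same 9 members were called, and without GFAP-IL6 mouse 1 there were 8. It fell to 4 without WT mouse 1, among them Zbp1 (not called with all mice), to 3 without WT mouse 2, to 2 without GFAP-IL6 mouse 2 and to 1 without GFAP-IL6 mouse 3. With all mice thinned to equal totals 4 members were called. The number that also passed the fold change was 5 without WT mouse 3, 4 without WT mouse 1, again with Zbp1, and 4 without GFAP-IL6 mouse 1. It was 2 without WT mouse 2, 2 without GFAP-IL6 mouse 2, 0 without GFAP-IL6 mouse 3 and 2 at equal totals. Lgals3bp was the one member with an adjusted p under 0.05 in each of these fits. With no filter on low counts 12 members were called, 7 of them also past the fold change. That fit gave smaller adjusted p at much the same fold changes, for Lgals3bp 9.2e-16 against 0.000147 at 1.09 in both. The share of all genes called in these fits is not given here. Whether members lost or gained calls more readily than other genes was not tested. The median log2 fold change of the members stayed between 0.56 and 0.76 when single mice were left out.

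All 5 transcription factors had positive fold changes, and Irf8 and Irf9 passed the test. Irf8, on chr8:120736358-120756694 (mm10, plus strand), had 4.73, 5.26 and 3.54 CPM in WT mice 1, 2 and 3, and 7.27, 10.9 and 13.9 CPM in GFAP-IL6 mice 1, 2 and 3. The groups did not overlap, and the GFAP-IL6 mice differed more from each other than the WT mice did. The log2 fold change was 1.24 ± 0.224 (SE), with an edgeR adjusted p of 0.00612. Without GFAP-IL6 mouse 3 the log2 fold change was 1.0 and the adjusted p 0.0645. Irf9, the DNA-binding part of the complex formed after type I interferon, lies on chr14:55603571-55610030 (plus strand). It had 5.41, 5.15 and 4.85 CPM in the WT mice and 7.69, 9.44 and 9.18 CPM in the GFAP-IL6 mice, again without overlap. The log2 fold change of Irf9 was 0.78 ± 0.170 (SE, edgeR adjusted p = 0.0251). It lay between 0.72 and 0.85 with single mice left out, and the call was lost without WT mouse 1, WT mouse 2, GFAP-IL6 mouse 2 or GFAP-IL6 mouse 3 (adjusted p up to 0.184). In GENCODE vM21, 123 exon bases of Irf9 are shared with Rnf31 on the same strand.

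Stat2, Irf1 and Irf7 did not pass the test. Stat2, the partner of Irf9, had 9.46, 9.25 and 7.74 CPM in the WT mice and 10.9, 12 and 14.2 CPM in the GFAP-IL6 mice. These values did not overlap, at a log2 fold change of 0.48 ± 0.153 (SE, edgeR adjusted p = 0.207). Irf1, an early target of interferon gamma, had 5.04, 6.42 and 4.85 CPM in the WT mice and 8.54, 7.96 and 10 CPM in the GFAP-IL6 mice. The groups were again apart, at 0.69 ± 0.181 (log2, SE, edgeR adjusted p = 0.0791). Irf1 was called when no filter was set on low counts (edgeR adjusted p = 0.0213), at the same log2 fold change of 0.69. That fit gave a smaller adjusted p to each of the 12 members named with values. Irf7, which amplifies the type I response, had 1.30, 2.38 and 1.31 CPM in the WT mice and 2.32, 3.31 and 3.86 CPM in the GFAP-IL6 mice. WT mouse 2 lay above GFAP-IL6 mouse 1 for this gene, and the log2 fold change was 0.93 ± 0.318 (SE, edgeR adjusted p = 0.271). An exon of Irf7 overlaps Phrf1 on the opposite strand by 45 bases, and whether strand was used in counting is not given in the sources used here.

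None of the 4 nucleic acid sensors passed the test. Zbp1, a sensor of Z-form nucleic acids that can start necroptosis, had 8, 2 and 0 counts in the WT mice and 6, 37 and 45 counts in the GFAP-IL6 mice. On the CPM scale the genotypes did not overlap, with 0 to 0.416 CPM against 0.632 to 1.77 CPM. The log2 fold change of 2.49 ± 0.647 (SE) was the largest among the members tested, and its edgeR adjusted p was 0.0766. Zbp1 was called without WT mouse 1 and when no filter was set on low counts. The RNA helicases Ddx58, Dhx58 and Ifih1, which sense viral RNA, had log2 fold changes of 0.72, 0.22 and -0.15 with overlapping groups.

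Of 10 antiviral effectors tested, Oasl2 was called higher and the other 9 were not called. Oasl2, an oligoadenylate synthetase-like protein on chr5:114896936-114912234 (plus strand), had 1.04, 1.05 and 1.70 CPM in the WT mice and 2.95, 3.74 and 2.83 CPM in the GFAP-IL6 mice. The lowest GFAP-IL6 mouse was above the highest WT mouse. Of the 28 counts of GFAP-IL6 mouse 1, however, 16 came from 1 library (1 ng, set A). Within single sets the genotypes were apart in 2 of the 4. The log2 fold change was 1.40 ± 0.317 (SE), with an edgeR adjusted p of 0.0314. It rested on 267 counts, and the call held without WT mouse 3 but was lost without each of the other mice (log2 fold change 1.26 to 1.6, adjusted p up to 0.222).

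Oas1a, a synthetase of the 2-5A messenger that activates RNase L, gave a similar log2 fold change of 1.32 on 113 counts, and its edgeR adjusted p was 0.300. The Ifit genes, whose products bind foreign RNA, are among the strongest targets of type I interferon. Ifit1 had 3.28, 3.10 and 3.80 CPM in the WT mice and 5.48, 4.36 and 5.29 CPM in the GFAP-IL6 mice. These did not overlap, and the log2 fold change was 0.59 ± 0.218 (SE, edgeR adjusted p = 0.360). Ifit2 and Ifit3 had log2 fold changes of 0.43 and 0.17 with overlapping groups. Ifit3 has a near-identical neighbour, Ifit3b, and reads that could not be placed on one of them were not counted, so both values are uncertain. Bst2, which tethers virions to the cell, Rsad2, which makes a chain-terminating nucleotide, the kinase Eif2ak2 and the nucleotidase Samhd1 had log2 fold changes from 0.29 to 0.68. Cmpk2, a mitochondrial nucleotide kinase next to Rsad2 in the genome, had 3021 counts, and every GFAP-IL6 mouse lay below every WT mouse, at 25.0 to 26.5 CPM against 26.5 to 30.3 CPM, a gap smaller than this rounding. That difference was a log2 fold change of -0.13 and did not pass the test (edgeR adjusted p = 0.826).

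In the largest group tested, the ISG15 system and the other members, 4 of 12 were called, and all 12 had positive fold changes. Lgals3bp, a secreted glycoprotein that binds galectin-3, lies on chr11:118392751-118402092 (minus strand). It had 18.7, 16.8 and 16.9 CPM in the WT mice and 30.7, 37.4 and 42.6 CPM in the GFAP-IL6 mice. The groups stood far apart, and the WT mice were close to each other. Its log2 fold change of 1.09 ± 0.127 (SE, edgeR adjusted p = 0.000147) had the smallest p of the members. The fold change stayed between 0.97 and 1.19 with single mice left out, with an adjusted p of at most 0.00195.

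Trim30a, a ubiquitin ligase of the Trim family on chr7:104409025-104465193 (minus strand), had 0.936, 1.11 and 1.57 CPM in the WT mice and 2.11, 3.16 and 3.94 CPM in the GFAP-IL6 mice. There was no overlap, and the log2 fold change was 1.47 ± 0.335 (SE, edgeR adjusted p = 0.0329) on 288 counts. The Trim30 genes are close relatives of each other, so part of their reads may have gone uncounted. Ifi35, a leucine zipper protein on chr11:101448407-101458698 (plus strand), had 6.03, 6.81 and 4.07 CPM in the WT mice and 9.59, 10.6 and 10.8 CPM in the GFAP-IL6 mice. Its log2 fold change was 0.83 ± 0.181 (SE, edgeR adjusted p = 0.0241). The GFAP-IL6 mice were close together and clear of the WT mice.

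Ifi27, a small membrane protein on chr12:103434211-103440239 (plus strand), had the smallest change that was called. It had 61.0, 62.2 and 66.1 CPM in the WT mice and 77.8, 92.3 and 82.1 CPM in the GFAP-IL6 mice. The groups did not overlap, and with 8632 counts behind it a log2 fold change of 0.42 ± 0.0917 (SE) reached an edgeR adjusted p of 0.0251. The calls of Trim30a and Ifi27 were both lost without WT mouse 1, WT mouse 2, GFAP-IL6 mouse 2 or GFAP-IL6 mouse 3, with log2 fold changes from 1.22 to 1.65 and from 0.35 to 0.47 and adjusted p up to 0.390 and 0.194. That of Ifi35 was lost without WT mouse 1, GFAP-IL6 mouse 2 or GFAP-IL6 mouse 3, at 0.70 to 0.98 and an adjusted p up to 0.151.

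Isg15, the ubiquitin-like modifier that gives the system its name, was not called. It had 9, 9 and 4 counts in the WT mice and 10, 32 and 41 counts in the GFAP-IL6 mice. As CPM the groups did not overlap, at 0.468 to 0.525 against 1.05 to 1.53, and the log2 fold change was 1.30 ± 0.439 (SE, edgeR adjusted p = 0.260). Usp18, which removes Isg15 from proteins and damps interferon signalling, had a log2 fold change of 0.59 with overlapping groups. Sp100, a nuclear body protein, and Trim25, a ligase for Ddx58 and for Isg15, had log2 fold changes of 1.21 and 1.04 without overlap and did not pass the test. Xaf1 and Ifi44 gave 0.36 and 0.82 without overlap, and Rtp4 and Parp14 0.53 and 0.17 with overlap.

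Members with large fold changes differed in the counts behind them. The 5 members called with a log2 fold change above 1 had 267 to 3505 counts over all mice and SEs of 0.127 to 0.335. The 5 members above 1 that were not called (Zbp1, Oas1a, Isg15, Trim25, Sp100) had 98 to 279 counts and SEs of 0.353 to 0.647. Sp100, with 279 counts, was not called, and Oasl2, with 267, was.

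Among the GTPases, Gbp2 and Gbp7 were higher and the immunity-related GTPases were not called. Gbp2 is a guanylate-binding protein that attacks vacuoles of intracellular pathogens and is a classical target of interferon gamma. It lies on chr3:142620602-142638008 (plus strand) and had 3.38, 2.88 and 2.10 CPM in the WT mice and 4.64, 7.38 and 8.04 CPM in the GFAP-IL6 mice. The groups did not overlap, and GFAP-IL6 mouse 1 was nearer to the WT mice than the other two were. The log2 fold change was 1.25 ± 0.245 (SE, edgeR adjusted p = 0.0119). It was 1.09 to 1.42 with single mice left out and lost its call without WT mouse 2, GFAP-IL6 mouse 2 or GFAP-IL6 mouse 3 (adjusted p up to 0.120).

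Gbp7, from the same cluster at chr3:142530342-142550149 (plus strand), had 4.94, 6.04 and 5.51 CPM in the WT mice and 8.22, 9.83 and 9.51 CPM in the GFAP-IL6 mice. Both groups were narrow and did not overlap, at a log2 fold change of 0.75 ± 0.169 (SE, edgeR adjusted p = 0.0299). The call of Gbp7 was lost without WT mouse 1, WT mouse 2, GFAP-IL6 mouse 2 or GFAP-IL6 mouse 3, at 0.67 to 0.84 and an adjusted p up to 0.194. Gbp3, between them in the genome, had 3.28 to 5.90 CPM in the WT mice and 3.90 to 5.99 CPM in the GFAP-IL6 mice. Those groups overlapped (log2 fold change 0.33). The genes of this cluster resemble each other, and the split of reads between them is uncertain.

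Irgm1, Igtp and Iigp1, GTPases that act on pathogen vacuoles, had log2 fold changes of 0.30, 0.26 and 0.63, and the groups of Irgm1 did not overlap. Psmb10, an immunoproteasome subunit with 16824 counts, had 165, 151 and 142 CPM in the WT mice and 146, 148 and 139 CPM in the GFAP-IL6 mice. It had the smallest error of all members tested, and its groups overlapped (log2 fold change -0.08 ± 0.084, SE, edgeR adjusted p = 0.878).

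**Figure D2:**
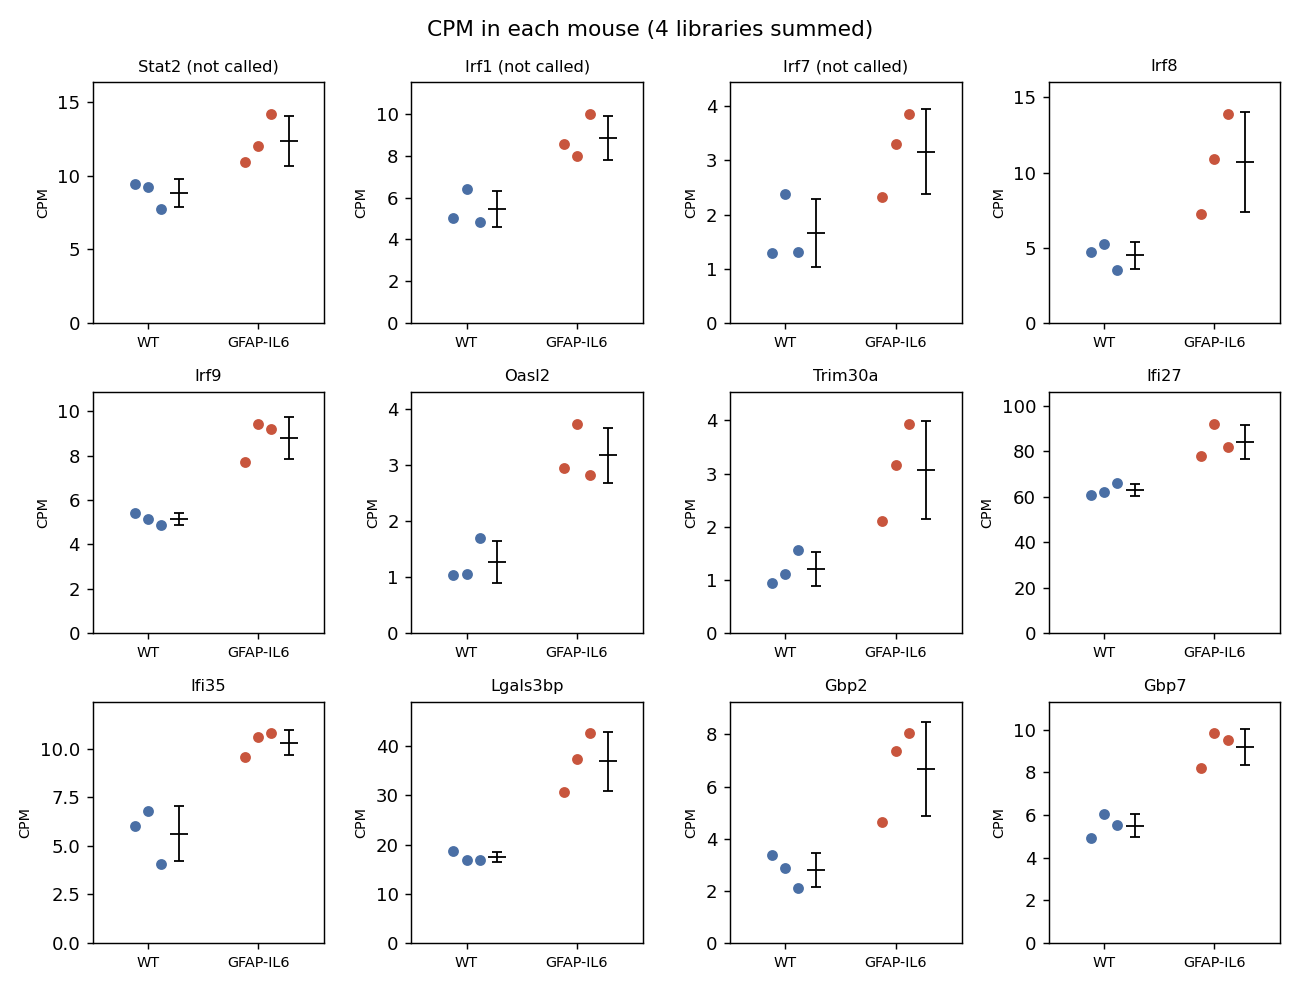
CPM (vertical axis, from 0, a scale of its own in each panel) in each WT (blue) and GFAP-IL6 (red) mouse for the 9 members called higher and for Stat2, Irf1 and Irf7, which were not called. Black bars are the mean ± SD of 3 mice. Irf7 is the one gene shown whose groups overlap.

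Promoters of the members were searched for both elements of the pathway. RefSeq windows from 250 bases before to 50 bases after a transcription start (GRCm38.p6, which is mm10) were found for 31 members, and none for Dhx58, Ifi27, Iigp1, Mx1, Mx2, Parp14, Rtp4, Usp18 and Zbp1. The ISRE core GAAANNGAAA, on either strand, was in the windows of 16 of the 31 members (51.6%) and of 3.99% of all 27025 genes with a window. The GAS letters TTCNNNGAA, which read the same on both strands, were in 10 members (32.3%) and in 9.55% of all genes. Matches of the 2 motifs may share bases, as they do in Bst2. The ISRE core was in 3 of the 8 called members with a window and in 13 of the 23 tested members that were not called, and GAS letters were in 3 and 7 of them.

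The called members with an ISRE core were Gbp2, Gbp7 and Trim30a, and the window of Irf8, chosen after its values were seen, is printed for its pair of GAS matches. The windows run 5′ to 3′ on the gene's strand, with the ISRE core in capitals in the first 3 and the GAS letters in capitals in Irf8. They lie at chr3:142620413-142620712 (Gbp2, plus), chr3:142530086-142530385 (Gbp7, plus), chr7:104465144-104465443 (Trim30a, minus) and chr8:120736108-120736407 (Irf8, plus).
Gbp2: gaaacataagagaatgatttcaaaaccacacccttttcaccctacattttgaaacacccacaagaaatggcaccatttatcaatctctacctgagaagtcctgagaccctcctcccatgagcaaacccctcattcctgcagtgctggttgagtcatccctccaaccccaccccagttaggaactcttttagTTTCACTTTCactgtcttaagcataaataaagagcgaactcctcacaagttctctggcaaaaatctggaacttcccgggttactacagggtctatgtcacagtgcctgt
Gbp7: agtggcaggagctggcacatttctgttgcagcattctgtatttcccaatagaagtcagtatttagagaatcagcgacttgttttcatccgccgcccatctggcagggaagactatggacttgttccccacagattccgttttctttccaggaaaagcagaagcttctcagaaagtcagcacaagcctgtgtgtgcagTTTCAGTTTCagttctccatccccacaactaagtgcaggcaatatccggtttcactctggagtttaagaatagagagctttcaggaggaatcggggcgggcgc
Trim30a: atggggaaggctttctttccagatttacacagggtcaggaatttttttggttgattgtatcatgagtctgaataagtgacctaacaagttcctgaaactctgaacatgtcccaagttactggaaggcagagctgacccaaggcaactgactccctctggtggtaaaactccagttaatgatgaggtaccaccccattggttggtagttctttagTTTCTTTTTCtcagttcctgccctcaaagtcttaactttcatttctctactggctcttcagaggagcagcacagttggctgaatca
Irf8: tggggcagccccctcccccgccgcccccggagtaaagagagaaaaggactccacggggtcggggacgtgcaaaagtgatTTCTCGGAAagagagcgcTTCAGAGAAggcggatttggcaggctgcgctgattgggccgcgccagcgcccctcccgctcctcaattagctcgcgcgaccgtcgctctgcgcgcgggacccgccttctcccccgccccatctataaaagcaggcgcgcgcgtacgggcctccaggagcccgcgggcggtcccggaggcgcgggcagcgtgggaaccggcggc
In the printed windows all 3 ISRE cores stand on the strand opposite to the gene, and their first bases are at -59 in Gbp2, -53 in Gbp7 and -36 in Trim30a relative to the RefSeq start. Trim30a has a further ISRE core at position 3 of its other window, chr7:104446076-104446375, counted from that start as 1. Gbp7 also has GAS letters at -106 and -87. Irf8 has them at -171 and -153 and has no ISRE core in its 2 windows. Isg15, which was not called, holds 3 overlapping ISRE cores at -78, -72 and -66, and Ifit1 holds 2, at -104 and -85. The match in Ifi35 is to the GAS letters at position 8, counted from the start as 1. These matches are letters in a sequence, and binding was not measured.

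The 4 sets of libraries, which hold the same mice, gave far fewer calls each than their sum. Of the members tested, 1 of 24 was called with 2 ng in set A (1.01% of all genes), 2 of 24 with 2 ng in set B (1.05%), 3 of 26 with 1 ng in set A (1.07%) and 1 of 29 with 1 ng in set B (1.06%). Lgals3bp was called in all 4 sets, Irf8 in the 2 ng set B and the 1 ng set A, and Ifi35 in the 1 ng set A. The median log2 fold change of the members was 0.50, 0.44, 0.68 and 0.43 in these sets in the same order. Among 22 members tested in all 4 sets, 16 had a positive fold change in each. The sets repeat the same mice, and the share of all genes with a positive fold change in each is not given here. This count therefore does not replicate the rise.

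Single genes were steady across sets to different degrees. Lgals3bp gave log2 fold changes of 0.99, 1.08, 1.26 and 1.10 in the 2 ng sets A and B and the 1 ng sets A and B. Ifi27 gave 0.48, 0.44, 0.41 and 0.42. The span of Ifi27 was smaller than its SE in any one set (0.119 to 0.13). Ifi35 ran from 0.36 to 1.34 and Irf1 from 0.12 to 1.0, both lowest with 1 ng in set B, and Trim30a from 1.16 to 2.30 in the 3 sets where it was tested.

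**Figure D3:**
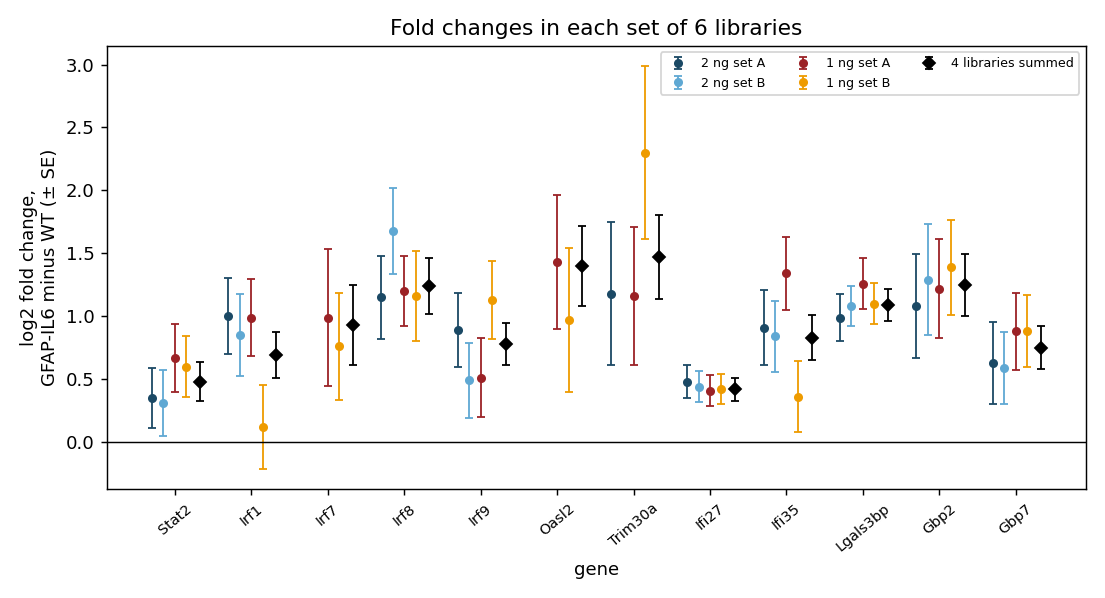
Log2 fold change between GFAP-IL6 and WT mice (vertical axis, bars ± SE, n = 3 mice each) for 12 members in each of the 4 sets of 6 libraries (colours) and with the 4 libraries per mouse summed (black diamonds). Irf7, Oasl2 and Trim30a lack the sets in which they failed the filter on low counts. Among the genes shown in all 4 sets, Ifi27 and Lgals3bp span the least, 0.41 to 0.48 and 0.99 to 1.26, and every point is above 0.

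Upstream of these genes no read was counted on an interferon gene. All 21 interferon genes in the table (types I, II and III, with Ifnb1 and Ifng) had 0 counts in all 24 libraries, which allows up to 0.0798 CPM in the deepest mouse and 0.382 CPM in the shallowest by counting error alone. Many of the 21 are Ifna genes, which are close relatives of each other. Reads shared between them would have gone uncounted, and their presence was not tested. Of 5 receptor chains tested, Ifngr1 was higher. It had 27.3, 30.4 and 22.8 CPM in the WT mice and 38.8, 43.6 and 51.4 CPM in the GFAP-IL6 mice. The groups were apart, at a log2 fold change of 0.73 ± 0.126 (SE, edgeR adjusted p = 0.00468), and the call held without any single mouse. Its partner Ifngr2 had a log2 fold change of 0.04 ± 0.104. The type I chains Ifnar1 and Ifnar2 gave 0.00 ± 0.137 and 0.44 ± 0.166, and only those of Ifnar2 lay apart between the groups (edgeR adjusted p = 0.372).

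Of 13 genes of interferon signal transduction, 2 were called higher, and both encode inhibitors. Socs3, a feedback inhibitor that interleukin-6 induces through Stat3, had 1.04, 1.16 and 1.31 CPM in the WT mice and 2.0, 2.78 and 5.29 CPM in the GFAP-IL6 mice. GFAP-IL6 mouse 3 was the highest by far, and without it the log2 fold change of Socs3 fell from 1.62 to 1.08 and the edgeR adjusted p rose from 0.0329 to 0.572. Ptpn6, a tyrosine phosphatase of blood and microglial cells, had 4.58, 3.93 and 4.59 CPM in the WT mice and 6.22, 7.96 and 12 CPM in the GFAP-IL6 mice (log2 fold change 1.06 ± 0.230, SE, edgeR adjusted p = 0.0243). Its groups were apart, and both calls were lost without WT mouse 1, WT mouse 2, GFAP-IL6 mouse 2 or GFAP-IL6 mouse 3 (for Ptpn6 a log2 fold change of 0.72 to 1.22 and an adjusted p up to 0.328).

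Among 10 further sensors and adaptors tested, Tmem173, the adaptor STING that acts downstream of cytosolic DNA, was called. It had 5.72, 3.71 and 4.33 CPM in the WT mice and 8.85, 11.9 and 14.3 CPM in the GFAP-IL6 mice. The lowest GFAP-IL6 mouse exceeded the highest WT mouse, and the log2 fold change was 1.36 ± 0.209 (SE, edgeR adjusted p = 0.00159). The call of Tmem173 held without any single mouse.

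A wider list held 61 other interferon-stimulated genes, of which 35 were tested. Of these, 7 were called higher and none lower, against 1.74% of all genes called higher. All 7 had a log2 fold change above 1. The median log2 fold change of the list was 0.60. Ifi30, a lysosomal thiol reductase for antigen processing, had 1.66, 2.49 and 1.70 CPM in the WT mice and 8.64, 14.7 and 14.4 CPM in the GFAP-IL6 mice. The lowest GFAP-IL6 mouse was far above the highest WT mouse, with a log2 fold change of 2.69 ± 0.243 (SE, edgeR adjusted p = 1e-05). Ifi204, a DNA-binding protein of the p200 family, had 3, 2 and 3 counts in the WT mice and 12, 61 and 68 in the GFAP-IL6 mice. Those are 8 against 141 counts in all, a ratio of 11.8 per total count (95% exact interval 5.80 to 27.8, counting error only), and the fitted log2 fold change was 3.43 (edgeR adjusted p = 0.00247).

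Lgals9, the lectin galectin-9, rose from 11.3, 11.9 and 11.3 CPM in the WT mice to 20.1, 25.4 and 31.0 CPM in the GFAP-IL6 mice (log2 fold change 1.17 ± 0.15, SE, edgeR adjusted p = 0.00034). Slfn2, a Schlafen protein of immune cells, rose from 3.12, 4.1 and 3.15 CPM to 7.69, 8.39 and 7.85 CPM (1.19 ± 0.193, edgeR adjusted p = 0.00246). Neither gene's groups overlapped. The calls of Ifi30, Ifi204, Lgals9 and Slfn2 held without any single mouse.

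Ifi27l2a, a relative of Ifi27, had 2.91, 2.21 and 5.64 CPM in the WT mice and 7.17, 7.67 and 11.7 CPM in the GFAP-IL6 mice. Epsti1 had 1.25, 0.554 and 0.656 CPM in the WT mice and 1.48, 3.02 and 3.53 CPM in the GFAP-IL6 mice. Phf11b had 7, 7 and 0 counts in the WT mice and 10, 34 and 62 counts in the GFAP-IL6 mice. In none of them did the groups overlap on the CPM scale, although GFAP-IL6 mouse 1 was close to WT mouse 1 for Epsti1. The log2 fold changes were 1.46 (1.16 to 1.82 with single mice left out), 1.71 (1.44 to 2.25) and 2.27 (1.96 to 2.55), with edgeR adjusted p of 0.0123, 0.0436 and 0.0408. That of Ifi27l2a was lost without WT mouse 1, WT mouse 2 or GFAP-IL6 mouse 3 (edgeR adjusted p up to 0.140). Epsti1 lost it without WT mouse 2, WT mouse 3, GFAP-IL6 mouse 2 or GFAP-IL6 mouse 3 (up to 0.404), and Phf11b without any one of the 6 mice (up to 0.280). Over all the pathway lists, 11 of 63 genes tested were called higher and none lower, against the same 1.74% of all genes. Leaving out WT mouse 1 gave 7, and leaving out WT mouse 2 or GFAP-IL6 mouse 3 gave 6, as did equal totals.

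**Figure D4:**
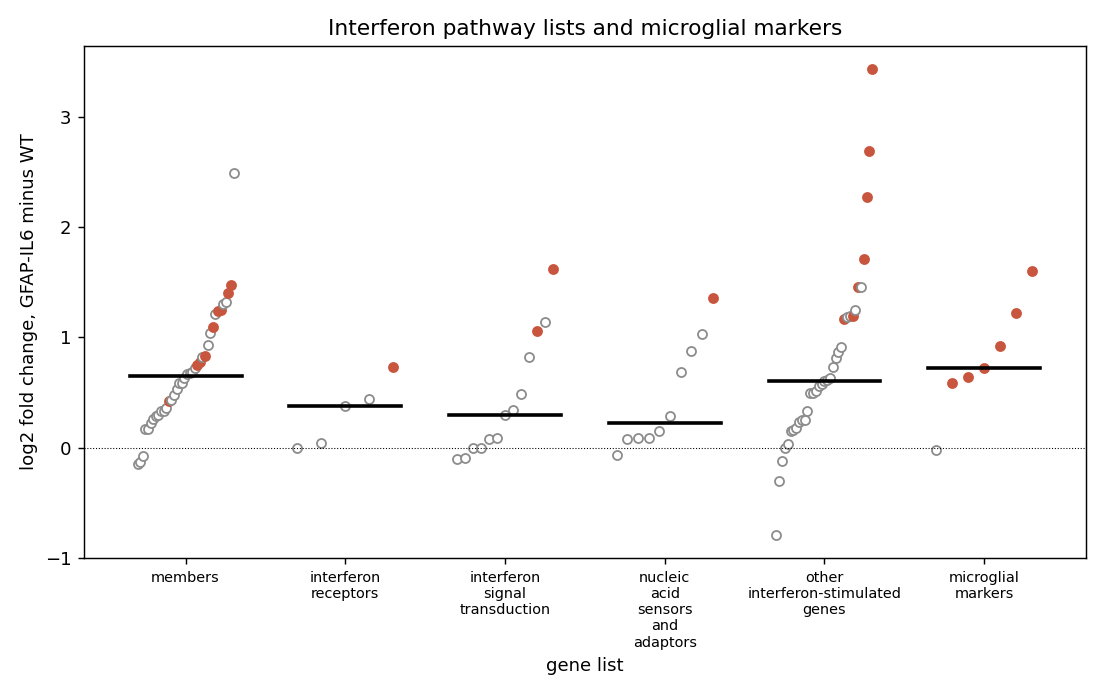
Log2 fold change between GFAP-IL6 and WT mice (vertical axis) of every gene tested in the 38 members, in 4 further lists of the interferon pathway and in 7 microglial markers (horizontal axis). Filled red points have an adjusted p under 0.05, open grey points do not, and black lines are list medians. The medians of the members, of the other interferon-stimulated genes and of the microglial markers are 0.65, 0.60 and 0.72.

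Markers of microglia also moved with the genotype. Of 7 such markers, 6 were called higher and none lower, against 1.74% of all genes called higher. Their median log2 fold change was 0.72. Their summed level was 362.3 to 407.7 CPM in the WT mice and 587.1 to 748.5 CPM in the GFAP-IL6 mice, without overlap. Itgam had the largest log2 fold change at 1.6, followed by Aif1 at 1.22, and both were called whichever single mouse was left out. Tmem119 was called in 2 of the 6 fits without a mouse, Csf1r in 3 and Cx3cr1 in 4. Tmem119 lost its call without WT mouse 2, WT mouse 3, GFAP-IL6 mouse 2 or GFAP-IL6 mouse 3 (log2 fold change 0.47 to 0.71, edgeR adjusted p up to 0.201). Csf1r lost it without WT mouse 1, WT mouse 2 or GFAP-IL6 mouse 3 (0.42 to 0.76, up to 0.153), and Cx3cr1 without WT mouse 1 or GFAP-IL6 mouse 3 (0.52 to 0.85, up to 0.0904). P2ry12, a receptor of resting microglia, had 51.0 to 58.9 CPM across all 6 mice and a log2 fold change of -0.02 ± 0.0928 (SE, edgeR adjusted p = 0.985). In bulk tissue a change in the number of cells of a type and a change in RNA per cell cannot be told apart, and the part of microglia in the fold changes of the members was not tested.

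No marker on the lists for monocytes, neutrophils, T and NK cells or B cells was called. Most of these markers had too few counts to be tested. Itgam and the other markers counted above as microglial were not on those lists, and which cells carried them was not tested. Whether cells entered from blood was therefore not tested. The 6 markers of T and NK cells summed to 0.131 to 0.572 CPM in the WT mice and 0.767 to 1.40 CPM in the GFAP-IL6 mice. These sums did not overlap, and none of the 6 passed the filter on low counts. The 3 B cell markers summed to at most 0.260 CPM in any mouse, and none of them was tested. The 3 neutrophil markers, 1 of them without any count, summed to between 0.393 and 4.59 CPM, and 2 were tested. None of the 4 markers of border macrophages passed the test. The monocyte marker Ccr2 did not pass either, at a log2 fold change of 1.26 ± 0.692 (SE, edgeR adjusted p = 0.668). Ly6c2, the other monocyte marker, was not tested. It had 1, 0 and 0 counts in the WT mice and 0, 5 and 13 counts in the GFAP-IL6 mice. Of 5 endothelial markers Flt1 was called higher (log2 fold change 0.70, edgeR adjusted p = 0.00637), and not without WT mouse 2 or GFAP-IL6 mouse 2 (0.60 to 0.81, adjusted p up to 0.0595). All 5 endothelial markers had positive log2 fold changes, with a median of 0.70. In 4 of them every GFAP-IL6 mouse lay above every WT mouse, which was so for 8.43% of all genes. Of 5 astrocyte markers only Gfap was called. No neuronal, oligodendrocyte or red blood cell marker was called. The 3 choroid plexus markers were not called either. The 9 members were called with and without WT mouse 3, in which Ttr was highest. Ttr also differed among GFAP-IL6 mice 1, 2 and 3, at 742, 422 and 74.5 CPM. The part of choroid plexus tissue in the fold changes was not tested.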

How the data were processed

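The deposited table holds read counts of each gene in 24 3'Pool-seq libraries, which the authors did not normalize. Reads had been trimmed of polyA, aligned to mm10 with STAR 2.4, and those placed uniquely were counted on GENCODE vM6 genes with featureCounts. The submitters' notes list hg19 as the build, and the identifiers in the table are those of mouse genes. Counts were summed per mouse and the genotypes compared with edgeR 4.0.16 (R 4.3.3) in a quasi-likelihood fit that followed filterByExpr and TMM, with Benjamini-Hochberg adjustment over all 14621 genes tested. SE is the log2 fold change divided by the square root of the F statistic. The test was tried on simulated counts first. The members and all gene lists were chosen with earlier results of these data known. Values per mouse are given for the members called, for the transcription factors, and for the pathway genes that were called. Positions are from GENCODE vM21. Labels do not say how the mice relate, so p-values measure the spread between these mice. Tables were made with Python 3.11.15 and pandas 2.3.3. A few genes of the lists are counted in them and not reported here by name.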

Additional observations from a re-analysis of the deposited data

How the results depend on the processing

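The fits were repeated with DESeq2 1.42.0, with its size factors in edgeR, without the filter, with a minimum of 10 counts per mouse, with other thresholds, without each mouse, with a replicate block, in each set alone and at equal totals. Members called higher with a log2 fold change above 1 numbered 5, and 0 to 5 with single mice left out. They numbered 3 with the replicate block, 0, 2, 3 and 1 in the 2 ng sets A and B and the 1 ng sets A and B, 2 at equal totals and 1 at an adjusted p under 0.1 with a log2 fold change above 1.5. Members called at an adjusted p under 0.05 alone numbered 9, and 1 to 9 with single mice left out, 4 with the replicate block, 1, 2, 3 and 1 in the 4 sets and 4 at equal totals. Pathway genes called higher numbered 11, and 6 to 11 with single mice left out, 7 with the replicate block, 2, 6, 5 and 4 in the 4 sets and 6 at equal totals. The median log2 fold change of the members, 0.65, was 0.50 in the 2 ng set A, 0.44 in the 2 ng set B and 0.43 in the 1 ng set B. The sets, the leave-outs and equal totals hold fewer counts or mice, and the replicate block holds all of them. The cause of these differences was not tested. Without the filter the numbers of members past both limits, of members called and of pathway genes called rose to 7, 12 and 14. Shares of all genes called are given above for the main fit and the 4 sets only. DESeq2 and its size factors called the same 9 members. Of 187 fold changes of the 12 members named with values under alternatives, none changed sign, 64 lost and 1 gained its call. Of these 12, 9 were named because they were called higher in the main fit. Some other members changed sign between sets, such as Eif2ak2 (log2 fold change -0.38 to 0.88) and Samhd1 (-0.18 to 0.64). Mice with the same number did not deviate together (r = -0.0495, -0.037 and -0.061), so the numbers were not taken to pair mice.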
